A study of Mus musculus with 12 samples.

Results

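The klotho genes, the fibroblast growth factor (FGF) receptors and their docking adaptors were followed across 3 groups of mouse kidneys. The genes are Kl, Klb, Fgfr1, Fgfr2, Fgfr3, Fgfr4, Fgfrl1, Frs2 and Frs3, taken by name from a table of array signals in which a probe set counts for a gene when it carries that gene's symbol alone. Of these 9 genes, 8 had a probe set among the 19938 genes tested, each of them exactly 1, and Frs2 was not analysed here. Kl had 0 further probe sets shared with another symbol.

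FGF23 is a hormone made by bone cells that makes the kidney excrete phosphate and lowers the making of active vitamin D. It binds FGF receptors with useful affinity only where alpha-klotho, the product of Kl, stands beside the receptor in the membrane, and the kidney tubule is the classic site of that complex. The activated receptor phosphorylates the docking proteins Frs2 and Frs3, which lead to RAS and the MAP kinases ERK, and the genes of that cascade include their own brakes.

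Total RNA of kidneys of female mice was hybridised to 12 whole-transcript arrays, 4 per group. KL null mice, labelled as strain 129/SvEv/C57BL/6, received 100 µl of saline vehicle. Wild-type (WT) mice, labelled C57BL/6, received recombinant FGF23 at 500 ng per g body weight, and other WT mice received the same vehicle. All injections were intraperitoneal, all kidneys were taken after 1 hour, and all mice had been on standard diet for 5 to 8 weeks. Strain label and genotype differ together and cannot be told apart, although the protocol calls the WT mice littermates. The labels do not say which part of Kl the KL null allele removes, whether the probe set lies in it, or whether each array is a separate mouse. The p-values therefore reflect variation between arrays, which may be technical. In whole kidney, fewer cells of a type and less RNA per cell cannot be told apart.

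Values are log2 signals, on which a difference of 1 is a doubling, and the levels of different genes are not comparable with each other. A gene was called where limma's moderated test gave a Benjamini-Hochberg adjusted p below 0.05 over all 19938 genes, and every adjusted p below is of that kind. The kidney label was checked against 10 defining genes, of which 9 were measured, with medians over these genes per array from 11.44 to 11.67 in KL null, 11.57 to 11.79 in WT with FGF23 and 11.62 to 11.91 in WT with vehicle. The SD of the signals over an array was lowest in WT with FGF23 replicates 1 and 2, at 2.166 and 2.167, and next in KL null replicates 1 and 2, at 2.195 and 2.217. It lay between 2.23 and 2.281 on the other 8 arrays.

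Kl, the co-receptor that FGF23 needs, was the one gene of the 8 called between KL null and WT with vehicle. Its signal was 9.66, 9.76, 9.66 and 9.80 in KL null kidneys, 10.45, 10.54, 10.61 and 10.44 in WT kidneys given FGF23, and 10.67, 10.45, 10.74 and 10.58 in WT kidneys given vehicle. Every KL null array lay below every WT array, and the 2 WT groups overlapped. KL null averaged 9.72 ± 0.07 against 10.61 ± 0.13 in WT with vehicle (SD, n = 4 each), which is a log2 difference of -0.89 (standard error 0.0831, 95% interval -1.07 to -0.71, limma adjusted p = 1.75e-05), or a 1.85-fold lower signal. The lowest signal of Kl in KL null was 9.66, and how much of that signal is Kl transcript was not tested. Over 24 other settings the log2 difference stayed between -0.95 and -0.85, with every adjusted p at or below 0.00108.

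Injected FGF23 left Kl without a detected change after 1 hour. The means were 10.51 ± 0.08 with FGF23 and 10.61 ± 0.13 with vehicle (SD, n = 4 each), a log2 difference of -0.10 with a 95% interval of -0.28 to 0.08 (limma adjusted p = 0.551). The interval leaves room for a fall of up to 0.28 and a rise of up to 0.08 on the log2 scale.

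The Kl promoter is shown because Kl is the gene called between KL null and WT with vehicle. Those of Fgfr3 and Fgfrl1, genes not called after FGF23, are shown because they hold a match to the motif of EGR1. EGR1 is the transcription factor whose mRNA had the largest rise among the pathway genes after FGF23. Sequences are the RefSeq windows of build GRCm38.p6, 250 bases before to 50 bases after a gene's start, found for 8 of the 9 genes, without Fgfr1. The search covered both strands for the EGR motif (GCGTGGGCG or GCGGGGGCG), the ETS motif (CCGGAAGT), the SP motif (GGGGCGGGG) and a TATA box (TATAAA), and capitals mark every match. The windows are chr5:150952357-150952656 (plus strand) for Kl, chr5:33721474-33721773 (plus strand) for Fgfr3, which has a further window without a match, and chr5:108693979-108694278 (plus strand) for Fgfrl1.
Kl: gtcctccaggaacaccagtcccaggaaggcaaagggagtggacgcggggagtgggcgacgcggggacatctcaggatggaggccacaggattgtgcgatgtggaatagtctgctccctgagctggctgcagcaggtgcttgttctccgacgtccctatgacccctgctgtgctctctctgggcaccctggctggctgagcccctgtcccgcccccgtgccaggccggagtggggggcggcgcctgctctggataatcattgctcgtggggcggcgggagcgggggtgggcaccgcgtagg
Fgfr3: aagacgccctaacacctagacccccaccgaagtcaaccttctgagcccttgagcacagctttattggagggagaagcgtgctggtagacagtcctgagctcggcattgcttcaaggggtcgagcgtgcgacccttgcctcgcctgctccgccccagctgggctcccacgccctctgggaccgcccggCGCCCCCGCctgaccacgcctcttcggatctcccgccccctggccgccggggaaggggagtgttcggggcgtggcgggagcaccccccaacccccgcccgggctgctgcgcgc
Fgfrl1: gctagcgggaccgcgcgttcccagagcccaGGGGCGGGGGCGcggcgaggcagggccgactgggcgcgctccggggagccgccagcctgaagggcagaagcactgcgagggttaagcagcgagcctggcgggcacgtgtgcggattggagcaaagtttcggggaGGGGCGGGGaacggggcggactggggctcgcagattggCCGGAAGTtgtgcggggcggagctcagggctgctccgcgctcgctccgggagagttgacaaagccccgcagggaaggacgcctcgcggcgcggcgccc

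The Kl window held none of the 4 motifs, with a GC content of 67.3% and 19 CpG sites against medians of 52.7% and 7 over all windows. In the Fgfr3 window the EGR letters stood on the minus strand, from base -63 to -55 relative to the start. In the Fgfrl1 window they ran from -217 to -209 and overlapped an SP match, a second SP match followed at -86 to -78, and an ETS match lay at -48 to -41. Of 32851 windows in the table, 3.467% held an EGR match, 3.887% an ETS match, 11.446% an SP match and 13.616% a TATA box. The printed Fgfr3 and Fgfrl1 windows had GC contents of 69.7% and 73.7%, and these shares were not taken over windows of like GC content. Among windows not printed, that of Frs2 held ETS and SP matches and that of Frs3 held SP matches. A match is a description of letters, not a bound site, and the EGR and SP motifs overlap in their letters.

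Klb encodes beta-klotho, the partner of the FGF19 and FGF21 receptors, known above all from liver and fat. Its signal was 4.57, 4.12, 4.22 and 4.01 in KL null kidneys, 4.83, 4.65, 4.45 and 4.08 in WT with FGF23, and 4.21, 4.33, 4.49 and 3.91 in WT with vehicle. All 3 groups overlapped. Its SD within groups, 0.272, was above that of 94.2% of the 2590 genes of like level.

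Neither comparison called Klb. Its mean signal stood at percentile 16.6 among the genes, and RMA, the processing of these signals, compresses differences of dim probe sets. A difference in Klb transcript may therefore show as a smaller one here. KL null and WT with vehicle averaged 4.23 ± 0.24 and 4.24 ± 0.25 (SD, n = 4 each), with a 95% interval for the log2 difference of -0.35 to 0.34 (limma adjusted p = 0.993). FGF23 and vehicle averaged 4.50 ± 0.32 and 4.24 ± 0.25, a log2 difference of 0.27 (95% interval -0.08 to 0.61, adjusted p = 0.425). That difference was 0.03 without WT FGF23 replicates 1 and 2, the arrays with the narrowest signal distributions, and 0.01 with the array SD as a covariate.

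**Figure D1:**
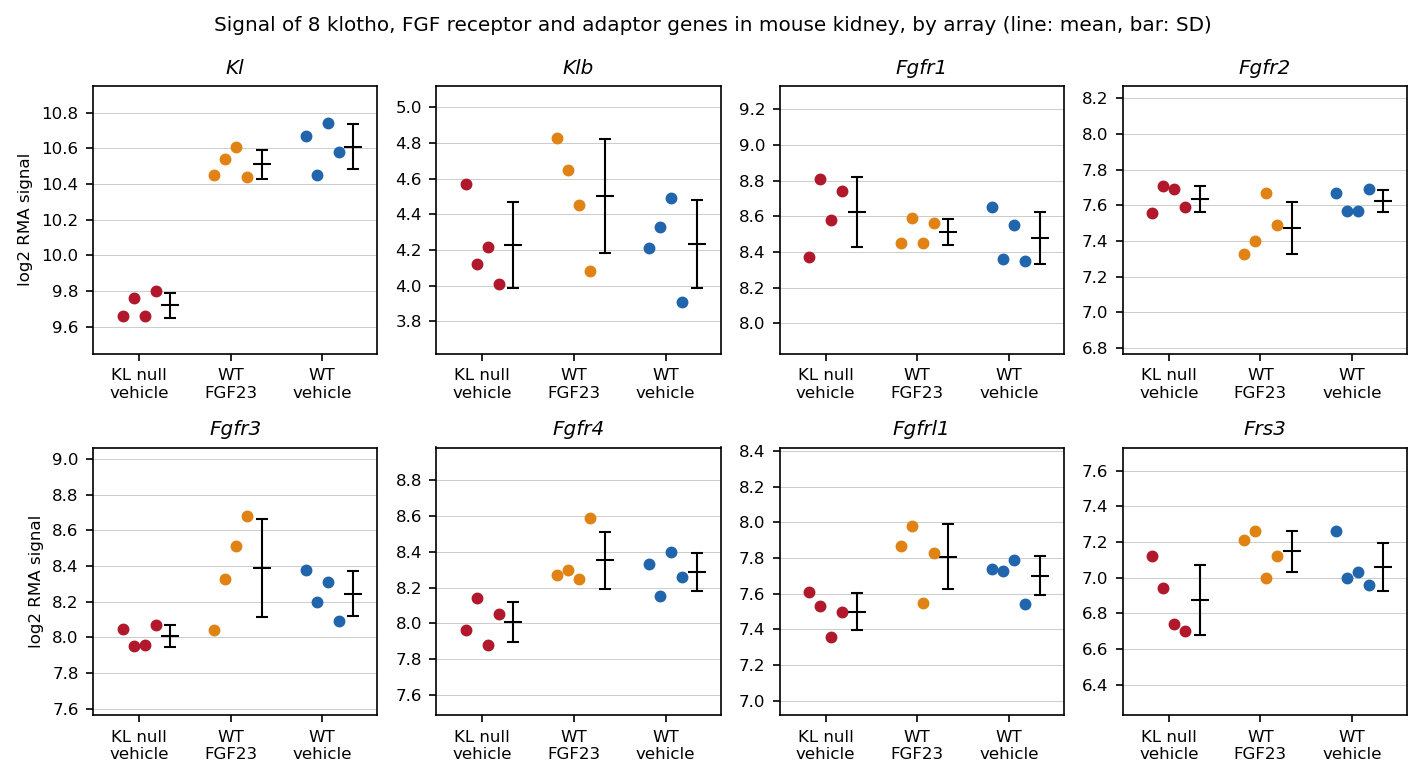
Log2 RMA signal of the 8 measured genes on each of the 12 arrays, by group, with the group mean (line) and SD (bar, n = 4) beside the points. The y axes of all panels span the same log2 range around different centres. Kl is the gene in which all 4 KL null arrays (9.66 to 9.80) lie far below the 8 WT arrays (10.44 to 10.74).

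Of the 4 signalling receptors, Fgfr4 and Fgfr3 had lower values in KL null kidneys, and neither passed the test against WT with vehicle. Fgfr4, a receptor of bile acid control in liver that the proximal tubule also makes, had signals of 7.96, 8.14, 7.88 and 8.05 in KL null, 8.27, 8.30, 8.25 and 8.59 in WT with FGF23, and 8.33, 8.15, 8.40 and 8.26 in WT with vehicle. All KL null arrays lay below all WT arrays, by as little as 8.14 against 8.15. The log2 difference of KL null from WT with vehicle was -0.28 (95% interval -0.48 to -0.07, limma adjusted p = 0.0919). It passed the test in 2 of 24 other settings, with array quality weights (adjusted p = 0.0377) and among genes at or above the median level (adjusted p = 0.0462).

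Fgfr3, which restrains bone growth and is one of the receptors through which FGF23 acts in the tubule, had signals of 8.05, 7.95, 7.96 and 8.07 in KL null, 8.04, 8.33, 8.51 and 8.68 in WT with FGF23, and 8.38, 8.20, 8.31 and 8.09 in WT with vehicle. KL null lay below WT with vehicle without overlap, while the lowest FGF23 array fell among the KL null values. The log2 difference of KL null from WT with vehicle was -0.24 (95% interval -0.49 to 0.01, adjusted p = 0.261).

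Fgfr1, the main FGF23 receptor of the kidney in many accounts, had signals of 8.37, 8.81, 8.58 and 8.74 in KL null, 8.45, 8.59, 8.45 and 8.56 in WT with FGF23, and 8.65, 8.36, 8.55 and 8.35 in WT with vehicle. The groups overlapped, and the log2 difference of KL null from WT with vehicle was 0.15 (95% interval -0.07 to 0.37, limma adjusted p = 0.471). Fgfr2, a receptor of kidney branching in the embryo, had signals of 7.56, 7.71, 7.69 and 7.59 in KL null, 7.33, 7.40, 7.67 and 7.49 in WT with FGF23, and 7.67, 7.57, 7.57 and 7.69 in WT with vehicle. Here KL null and WT with vehicle differed by 0.01 (95% interval -0.17 to 0.19, adjusted p = 0.961), a value that turned to -0.04 when the arrays were centred on their medians.

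Fgfrl1 encodes a receptor that binds FGFs but has no kinase domain. Its signal was 7.61, 7.53, 7.36 and 7.50 in KL null, 7.87, 7.98, 7.55 and 7.83 in WT with FGF23, and 7.74, 7.73, 7.79 and 7.54 in WT with vehicle. Most KL null values were the lower ones but the groups overlapped, and the log2 difference from WT with vehicle was -0.20 (95% interval -0.41 to 0.01, limma adjusted p = 0.265).

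Frs3, the docking adaptor measured here, had signals of 7.12, 6.94, 6.74 and 6.70 in KL null, 7.21, 7.26, 7.00 and 7.12 in WT with FGF23, and 7.26, 7.00, 7.03 and 6.96 in WT with vehicle. The groups overlapped, with a log2 difference of KL null from WT with vehicle of -0.19 (95% interval -0.41 to 0.04, limma adjusted p = 0.341).

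Between KL null and WT with vehicle, 1 of the 8 genes, Kl, was called, while 8.01% of all genes were called and 4.44% called lower. Groups that did not overlap were found for 3 of the 8, all lower in KL null (Kl, Fgfr3 and Fgfr4), against 7.44% of all genes in that direction. Fgfr4 and Fgfr3 were apart narrowly, by 8.14 against 8.15 and 8.07 against 8.09. A negative difference was seen for 6 of the 8, with a median of -0.19 over the 8 and 0.03 over all genes. Of all genes 43.5% had one, and that of Klb was -0.005. Kl, the gene targeted in these mice, is part of each of these counts and medians, where its place was set by the design. With the arrays centred on their medians the median over the 8 was -0.25 and that of all genes -0.03.

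**Figure D2:**
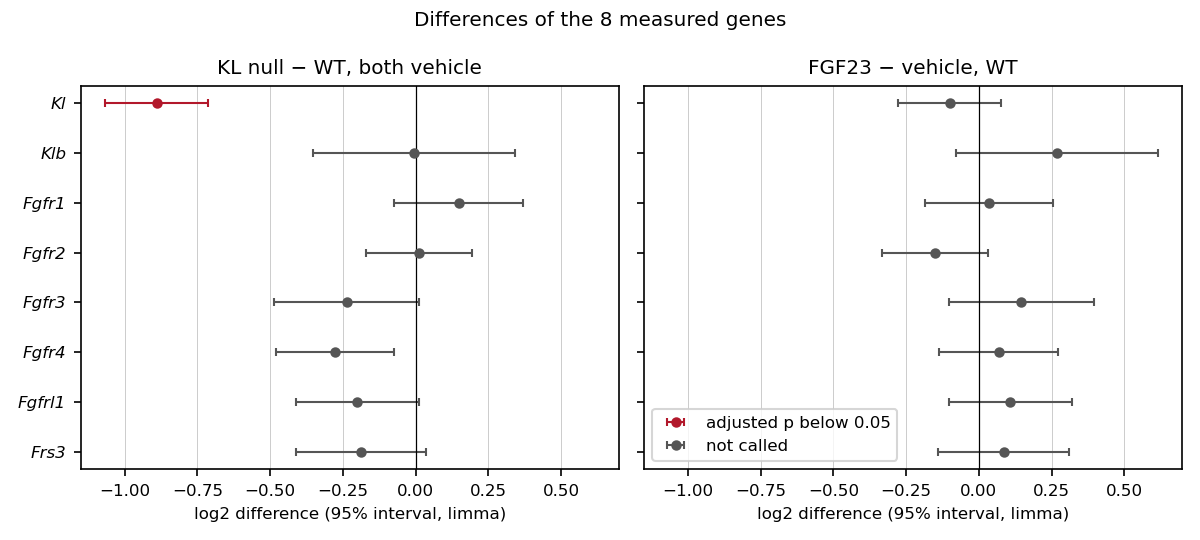
Log2 differences of the 8 genes with 95% intervals from limma, for KL null minus WT with vehicle on the left and for FGF23 minus vehicle in WT on the right. Kl on the left, at -0.89, is the sole called difference (red), and all intervals on the right include 0.

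After FGF23, 0 of the 8 genes passed limma's test against vehicle, and 0 of the 8 had an unadjusted p below 0.05, where 0.0853% of all genes were called and 15.4% had such a p. All 8 overlapped between the groups, and 7.01% of all genes did not. The log2 difference was 0.04 for Fgfr1 (95% interval -0.19 to 0.26), -0.15 for Fgfr2 (-0.33 to 0.03), 0.15 for Fgfr3 (-0.10 to 0.39) and 0.07 for Fgfr4 (-0.14 to 0.27). Fgfrl1 differed by 0.11 (-0.10 to 0.32) and Frs3 by 0.09 (-0.14 to 0.31). With adjusted p-values of 0.390 to 0.884, none of these directions was settled, and those of Fgfr1 and Fgfr4 turned when the arrays were centred on their medians, to -0.04 and -0.005. Those of Fgfrl1 and Frs3 turned without WT FGF23 replicates 1 and 2, to -0.01 and -0.0025. Without that pair Fgfr3 differed by 0.35, Fgfr2 by -0.045 and Fgfr4 by 0.135, and without single arrays Fgfr3 ran from 0.0483 to 0.2617.

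The direct comparison of KL null with vehicle against WT with FGF23 joins genotype, strain label and treatment. It called 3 of the 8 genes, all lower in KL null, where 12% of all genes were called and 5.25% called lower. Kl averaged 9.72 ± 0.07 in KL null and 10.51 ± 0.08 in WT with FGF23 (SD, n = 4 each), a log2 difference of -0.79 (limma adjusted p = 5.50e-05). Fgfr4 averaged 8.01 ± 0.11 and 8.35 ± 0.16, a difference of -0.35 (adjusted p = 0.0295), and its groups did not overlap. Fgfr3 averaged 8.01 ± 0.06 and 8.39 ± 0.27, a difference of -0.38 (adjusted p = 0.0452), with overlap.

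The receptor calls of this comparison lay near the threshold. Of 12 repeats without 1 array, 5 lost the Fgfr4 call and 10 lost the Fgfr3 call. The Fgfr4 call was lost without WT FGF23 replicate 2 (adjusted p = 0.0550) or 4 (0.0906), or without KL null replicate 1 (0.0504), 3 (0.103) or 4 (0.0514). The Fgfr3 call was lost without WT FGF23 replicate 2, 3 or 4, any KL null replicate, or WT vehicle replicate 1, 2 or 3, with adjusted p-values up to 0.129. WT vehicle arrays are not part of this difference, which stayed at -0.38 without replicate 1, 2 or 3 of that group. In these 8 arrays same-numbered samples deviated together. A fit of the 8 arrays alone, with the replicate number as a block, gave adjusted p-values of 0.0527 for Fgfr3 and 0.0402 for Fgfrl1. The same 8 arrays without the block gave 0.0788 for Fgfr3 and called Kl alone. For Fgfrl1 the main fit, which also holds the WT vehicle arrays, gave 0.0566. Without WT FGF23 replicates 1 and 2 together, 2 of the 8 were called: the Fgfr3 difference was -0.59 (adjusted p = 0.00647) and Fgfr4 lost its call (adjusted p = 0.0674). Kl was called in all 25 other settings, with adjusted p-values up to 0.00139.

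Around the receptors, 2 ligand genes were called between KL null and WT with vehicle, where 8.01% of all genes were called and 4.44% called lower. Of 22 FGF genes, all measured, 1 was higher and 1 lower in KL null than in WT with vehicle, with a list median of 0.12 against 0.03 over all genes. Fgf1, acidic FGF, which binds all FGF receptors without klotho, averaged 8.88 ± 0.14 in KL null and 10.13 ± 0.34 in WT with vehicle (SD, n = 4 each), 2.39-fold lower (limma adjusted p = 0.00122). Fgf18, a growth factor of bone and lung, averaged 7.01 ± 0.20 against 6.48 ± 0.18, 1.44-fold higher (adjusted p = 0.00941).

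After FGF23, 0 of the 22 ligand genes were called and 4 had an unadjusted p below 0.05. Their median difference was 0.18, against 0.04 over all genes, and 19 of the 22 were positive. Without WT FGF23 replicates 1 and 2 the median was 0.04, and with the array SD as a covariate it was -0.02 with 9 positive. Fgf23 itself averaged 5.70 ± 0.23 in KL null, 5.81 ± 0.34 in WT with FGF23 and 5.53 ± 0.23 in WT with vehicle, with no call in either comparison with vehicle; the injected protein is not measured by an array.

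Of 11 genes of klotho shedding and FGF23 processing, 10 were measured, and 2 were lower in KL null, where 4.44% of all genes were called lower. Fam20c, the kinase that phosphorylates FGF23, averaged 8.47 ± 0.23 in KL null and 9.18 ± 0.20 in WT with vehicle, 1.64-fold lower (limma adjusted p = 0.00248). Furin, a protease that cleaves FGF23, was 1.34-fold lower (adjusted p = 0.0252), a call lost without KL null replicate 1, 2 or 3 or WT vehicle replicate 1 or 3 (adjusted p up to 0.0918). Adam10 and Adam17, proteases that release klotho from the membrane, were not called: Adam10 averaged 9.18 ± 0.06 in KL null, 9.30 ± 0.12 in WT with FGF23 and 9.41 ± 0.06 in WT with vehicle. After FGF23, 0 of the 10 were called.

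FGFs also need heparan sulfate, whose core proteins and enzymes were listed with FGF-binding proteins, 25 of 27 measured. In KL null 3 were higher and 1 lower, where 8.01% of all genes were called. Gpc3, glypican 3, a heparan sulfate proteoglycan of growing tissue, averaged 9.52 ± 0.12 in KL null and 8.42 ± 0.17 in WT with vehicle, 2.15-fold higher (limma adjusted p = 1.05e-05). Sulf1, which removes sulfate from heparan sulfate, was 1.45-fold higher (adjusted p = 0.0135), and Fgfbp1, which releases stored FGFs, 1.35-fold higher (adjusted p = 0.0177). The Fgfbp1 call was lost without KL null replicate 3 or WT vehicle replicate 1 or 3, with adjusted p up to 0.0686.

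Hs6st2, a heparan sulfate 6-O-sulfotransferase, averaged 5.37 ± 0.06 in KL null and 6.08 ± 0.23 in WT with vehicle, 1.64-fold lower (limma adjusted p = 0.0038). After FGF23, 0 of the 25 were called. The list medians were -0.04 in KL null and -0.02 after FGF23.

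Of 40 genes of the cytoplasmic relay from receptor to ERK, AKT and STAT, 32 were measured. In KL null 1 was called, against 8.01% of all genes. That gene was Stat3, a transcription factor of cytokine signalling, at 9.46 ± 0.30 in KL null and 8.99 ± 0.12 in WT with vehicle (limma adjusted p = 0.0294). Its call was lost without any one of KL null replicates 2, 3 and 4 or of the 4 WT vehicle replicates, with adjusted p up to 0.0913. The count itself ran from 0 to 4 without single arrays and reached 6 with array weights, and which genes made it up was not compared. After FGF23, 0 of the 32 were called.

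**Figure D3:**
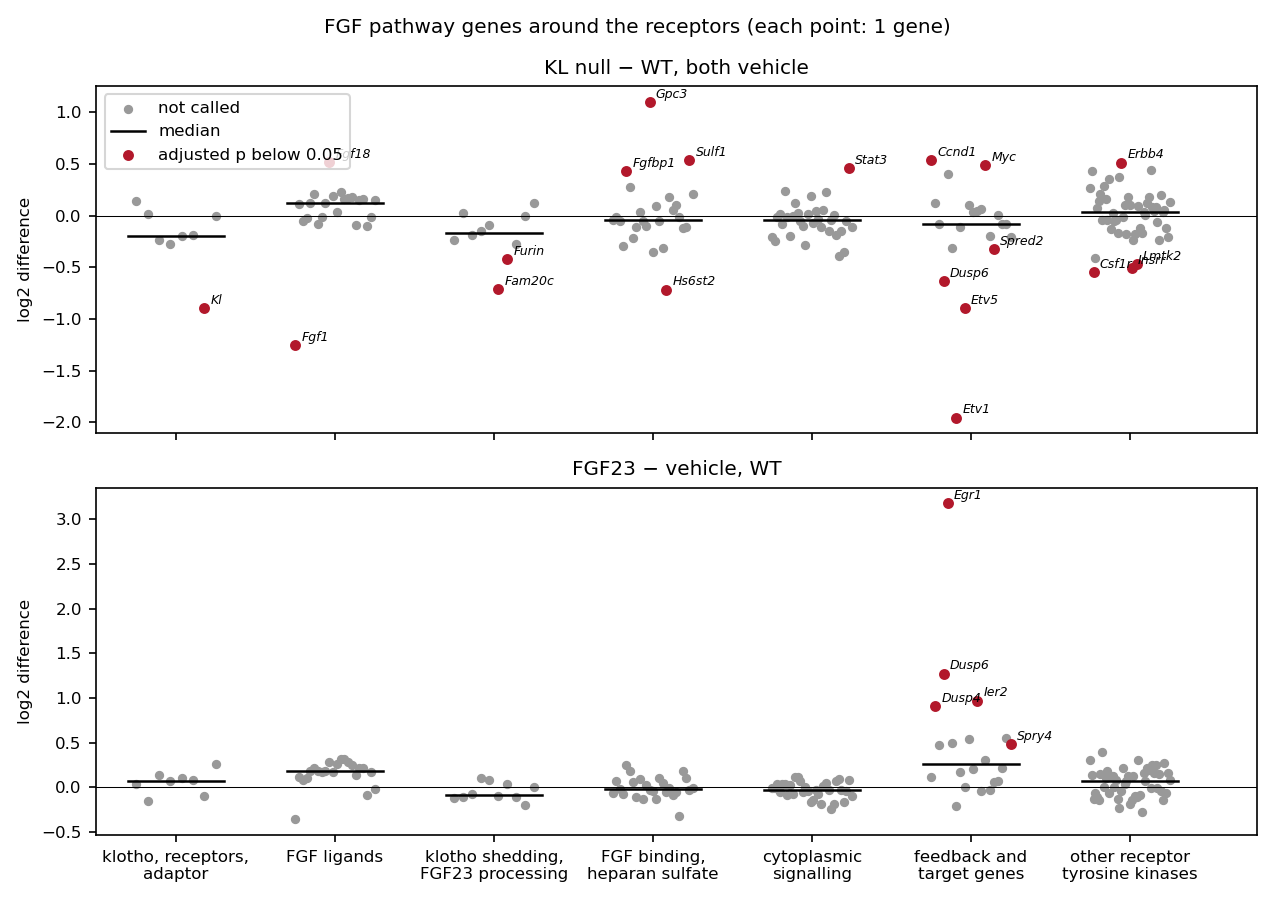
Log2 differences of the measured genes of the klotho and receptor group and of 6 pathway lists, for KL null minus WT with vehicle (top) and FGF23 minus vehicle in WT (bottom). Each point is 1 gene, red where limma's adjusted p is below 0.05, and black lines are list medians. The called genes after FGF23 all stand in the feedback list, led by Egr1 at 3.18. KL null has called genes in every list shown, where 8.01% of all genes were called.

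The feedback and target genes of FGF signalling were the one pathway list with calls after FGF23, where 0.0853% of all genes were called. Of the list, 5 of 20 rose, against 3 to 4 without single arrays and 2 to 5 over all 24 other settings. Egr1, an immediate early transcription factor, averaged 9.34 ± 0.35 with FGF23 and 6.16 ± 0.17 with vehicle (SD, n = 4 each), 9.05-fold higher (limma adjusted p = 1.55e-08). Dusp6, the phosphatase that switches off ERK, averaged 10.11 ± 0.12 and 8.83 ± 0.11, 2.42-fold higher (adjusted p = 1.60e-06). Ier2, an immediate early gene, was 1.96-fold higher (adjusted p = 0.00105), a call lost under 1 of 23 other settings, an ordinary linear model (adjusted p = 0.0596). Dusp4 and Spry4, further inhibitors of the cascade, were 1.88-fold and 1.40-fold higher, both at adjusted p = 0.0470. Those last calls were lost in most repeats without an array, 9 of 12 for Dusp4 and 12 of 12 for Spry4, and Spry4 was named after its value was seen.

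In KL null 2 of the same 20 genes were higher and 4 lower, where 8.01% of all genes were called and 4.44% called lower. Etv1, an ETS factor induced by FGF signals, averaged 5.88 ± 0.28 in KL null and 7.84 ± 0.05 in WT with vehicle, 3.87-fold lower (limma adjusted p = 5.52e-07). Etv5, its relative, was 1.86-fold lower (adjusted p = 0.000198) and Dusp6 1.55-fold lower, at 8.20 ± 0.06 against 8.83 ± 0.11 (adjusted p = 0.000389). Dusp6 was the one gene of the list called in both comparisons, lower in KL null and higher after FGF23, and both use the same vehicle arrays. Etv1 and Etv5 were not called after FGF23, with log2 differences from vehicle of -0.21 (limma adjusted p = 0.391) and 0.0075 (adjusted p = 0.979). Spred2, a brake on RAS, was 1.25-fold lower (adjusted p = 0.0352), and lost its call in 6 of 12 repeats without an array, with adjusted p up to 0.0992.

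Myc and Ccnd1, genes of cell growth and division, were 1.40-fold and 1.45-fold higher in KL null (limma adjusted p = 0.00924 and 0.0271), and the Ccnd1 call was lost without KL null replicate 2 or 3 or WT vehicle replicate 2 or 4 (adjusted p up to 0.0819). Egr1 averaged 6.56 ± 0.12 in KL null, with no call against WT with vehicle (adjusted p = 0.106). Cyp27b1, the enzyme that activates vitamin D and that FGF23 lowers, averaged 9.64 ± 0.51 in KL null and 6.75 ± 0.37 in WT with vehicle, 7.37-fold higher (adjusted p = 7.82e-06), and 6.28 ± 0.39 with FGF23, not called (adjusted p = 0.362).

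Other receptor tyrosine kinases gave a frame for the FGF receptors, with 47 of 49 measured. In KL null 1 was higher and 3 were lower, where 8.01% of all genes were called, and 0 were called after FGF23. Erbb4, a neuregulin receptor of the tubule, was 1.43-fold higher (limma adjusted p = 0.00423). Insrr, an alkali-sensing receptor, was 1.42-fold lower (adjusted p = 0.00516), Lmtk2, a membrane kinase, 1.38-fold lower (adjusted p = 0.00455), and Csf1r, the macrophage growth factor receptor, 1.46-fold lower (adjusted p = 0.0321). Csf1r lost its call in 6 of 12 repeats without an array, with adjusted p up to 0.0942. The list median was 0.04 in KL null, against -0.19 for the 8 klotho and receptor genes, which include the targeted gene Kl. Medians near -0.19 were not particular to these 8 genes. Over the pathway and cell type lists they ran from -0.37 (proximal tubule) to 0.61 (macrophage and leukocyte). Between these stood -0.165 for klotho shedding and FGF23 processing, -0.185 for endothelial and -0.25 for podocyte genes.

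The genes with values most like those of Kl over the 12 arrays were Col4a3, a basement membrane collagen, Gclm, of glutathione synthesis, Mlec, a lectin of the endoplasmic reticulum, Hyou1, a chaperone there, and Fasn, fatty acid synthase. Likeness was the root mean square difference of mean-centred log2 signals, from 0.0939 for Col4a3 to 0.123 for Fasn. Col4a3 averaged 8.57 ± 0.08 in KL null, 9.33 ± 0.11 in WT with FGF23 and 9.48 ± 0.09 in WT with vehicle. The klotho and receptor genes were farther from Kl, from 0.283 for Fgfr4, with 757 other genes closer, to 0.472 for Fgfr1. Since these genes were chosen for their pattern, it carries no test.

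**Figure D4:**
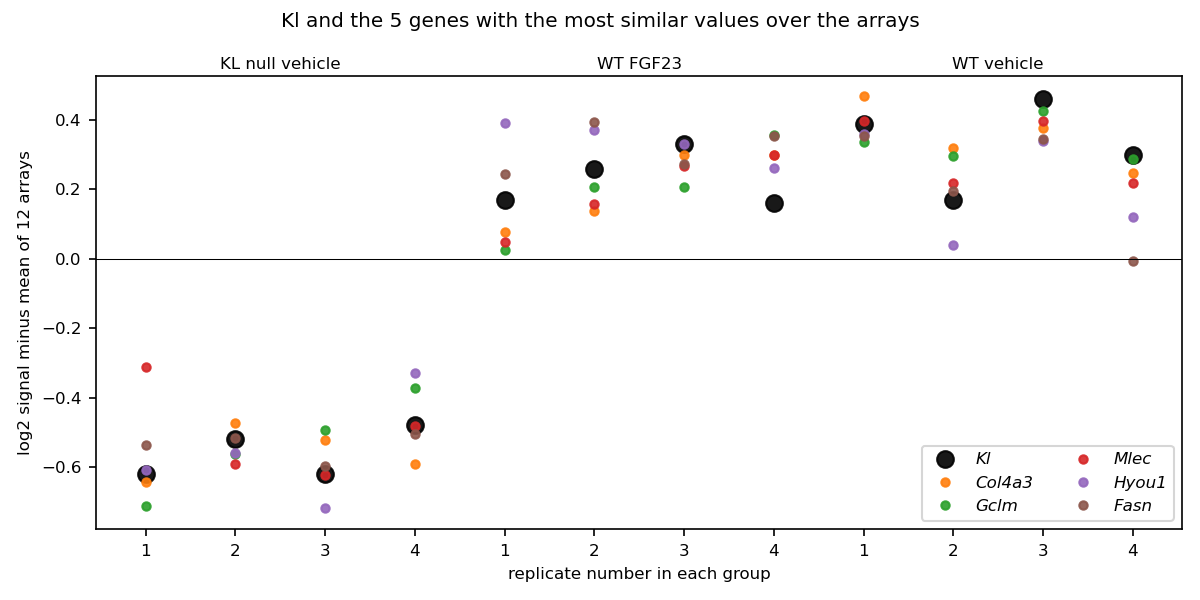
Log2 signal minus the mean of 12 arrays for Kl (large black points) and the 5 genes nearest to it, by array within each group. All 6 genes lie below 0 on the 4 KL null arrays, and the points of Kl and Col4a3 differ by 0.0939 in root mean square.

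Markers of kidney cell types differed between KL null and WT with vehicle beside these results, and their part in them was not tested. Of all genes, 8.01% were called in that comparison and 4.44% called lower. Of 17 proximal tubule genes measured, 10 were lower and 1 higher in KL null, with a median of -0.37 and array medians of 11.30 to 11.62 in KL null, 11.89 to 11.98 in WT with FGF23 and 11.97 to 12.25 in WT with vehicle. The leading genes were Gatm (-0.99), Slc22a8 (-0.57), Lrp2 (-0.50) and Slc13a3 (-0.72), which fell, and Slc7a13 (3.52), which rose. Slc7a13 had an SD of 1.39 in KL null and 0.19 in WT with vehicle. Of the 9 kidney-defining genes 4 were lower, Lrp2, Cubn (-0.39), Slc12a3 (-0.32) and Slc34a1 (-0.27), of which the last 3 lost their calls in 2 to 7 of 12 repeats without an array. Of 15 genes of the distal convoluted and connecting tubule, where Kl is known to be most abundant, 3 were higher (Trpv5 0.97, Trpm6 0.50, Tmem52b 0.29) and 2 lower (Slc12a3, Cnnm2 -0.34), with a median of 0.01.

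Among the other cell types, 9 of 17 macrophage and leukocyte genes were higher in KL null, led by Mmp12 (3.15), Gpnmb (2.83), Lyz2 (1.71) and Itgam (0.88), and Csf1r was lower. The SDs of these leading genes, in that order, were 1.07, 1.35, 0.55 and 0.30 in KL null. In WT with vehicle they were 0.20, 0.09, 0.46 and 0.22, so the size of the rise varied between KL null arrays for Mmp12 and Gpnmb. Array medians of that list were 6.36 to 7.53 in KL null, 5.90 to 6.27 in WT with FGF23 and 6.00 to 6.26 in WT with vehicle. Of 12 tubule injury genes 7 were higher, led by Timp1 (1.24), Lcn2 (2.39), Vcam1 (0.83) and Krt8 (0.46). Lcn2 had an SD of 0.91 in KL null and 0.33 in WT with vehicle. Of 16 fibroblast and matrix genes 3 were higher, Timp1, Dcn (0.85) and Vim (0.57). Of 9 thick ascending limb genes 1 was higher (Cldn16, 0.42), of 8 podocyte genes 1 was lower (Podxl, -0.37), and 0 of 12 endothelial, 0 of 12 collecting duct and 0 of 3 erythroid genes were called. Of 11 adipocyte genes 1 was lower (Lpl, -0.995), of 10 hepatocyte genes 2 were lower (Alb, -1.22, and Ttr, -0.84), and of 10 adrenal genes 1 was higher (Hsd3b1, 0.60). After FGF23, 0 genes of these 14 marker lists were called. Of the marker calls in KL null, those of Tmem52b, Cnnm2 and Lpl were each lost in 9 of 12 repeats without an array. Vim lost its call in 8, Podxl and Ttr in 5, Cldn16 and Alb in 3, Dcn in 2 and Hsd3b1 in 1. Of called genes not named above, Cd68 and Slc3a1 lost theirs in 7, C1qa in 6, C1qb in 4 and Krt20 in 3. The counts of macrophage, proximal tubule and injury genes include these.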

How the data were processed

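The deposited values are log2 signals of probe sets. Per the submitters' processing notes, the authors used Partek 6.2 and RMA; its background settings are not stated in these sources. RMA compresses differences of dim probe sets. Of 28853 probe sets 21789 had 1 gene symbol, and the one with the highest mean stood for each of 19938 genes. limma 3.58.1 in R 4.3.3 fitted 3 group means over all 12 arrays (9 residual degrees of freedom, two-sided moderated test), tested on simulated data; figures used Python 3.11.15, pandas 2.3.3 and matplotlib 3.10.9. No 2 replicates were one array deposited again: at most 2.7% of their values were identical. Only 4 arrays per group limit the precision.

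The members, the lists and the alternatives were chosen with earlier results of these data known. Named are all members, up to 4 called genes of smallest p per list and direction, the 5 genes nearest to Kl, and Egr1, Dusp6, Etv1 and Cyp27b1. Cd68, Slc3a1, C1qa, C1qb and Krt20 are named only for calls lost without an array. Alternatives changed the centring, quantile normalization, weights, covariates, probe set choice and arrays used. Same-numbered arrays of KL null and WT with FGF23 deviated together (correlations 0.143 to 0.259), and the labels name no shared litter or day. Different-numbered arrays were not correlated for comparison. Replicates 1 and 2 had the lowest array SD in both groups, and its part in these correlations was not tested. In the other comparisons the correlations ran from -0.216 to 0.191. Samples of the protocol's HBEGF arm were not analysed here.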

Additional observations from a re-analysis of the deposited data

Results flagged for a closer look

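Among the 24 sets of 4 arrays that the 8 klotho and receptor genes make, 1 held an array far from the other 3. Fgfr4 was 8.59 on WT FGF23 replicate 4, with the others at 8.25 to 8.30. Without that array the Fgfr4 log2 difference of FGF23 from vehicle was -0.01, against 0.07 with it.

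Over the 65 genes examined in this way, 7 of 195 such sets held an array of this kind. Chance marks about 1 in 20, so neither this count nor that of the klotho and receptor genes is above chance. KL null replicate 1 stood apart in 3 marker genes: Gatm was 11.62 there and 11.14 to 11.19 on the others, Podxl was 9.21 against 9.48 to 9.52, and Dcn was 10.29 against 11.06 to 11.18. Gatm was 12.12 on WT FGF23 replicate 3 and 12.14 on the other 3 arrays, a flag that comes from the 3 equal values and not from a wide gap. Vim was 8.95 on WT vehicle replicate 4, with 9.34 to 9.38 on the others, and Alb was 8.60 on WT vehicle replicate 3, with 8.16 to 8.23 on the others.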

How the results depend on the processing

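Kl kept its direction and its call in KL null under all 24 alternatives, and 0 of the 8 genes were called after FGF23 under any. In KL null against WT with vehicle, 2 of the 8 were called with array weights and among genes at or above the median level, since Fgfr4 joined. Against WT with FGF23 the count ran from 1 to 3 without single arrays, and was 5 with array weights and 1 with the 8 arrays of that comparison alone. All-gene counts moved more. After FGF23, 17 genes became 4 to 14 without single arrays, 8 without the 2 narrow arrays, 6 with the replicate block, 6 median-centred, 10 quantile-normalized, 11 with the array SD as covariate, 7 with 8 arrays, 2 with an ordinary linear model and 5 over all probe sets. In KL null, 1598 became 828 to 1728 without single arrays and 2852 with weights, and against WT with FGF23, 2386 became 1218 to 2794 without single arrays and 944 without the 2 narrow arrays. Median centring changed the split of KL null calls from 713 higher and 885 lower to 428 and 1239, and that after FGF23 from 16 and 1 to 5 and 1. Why these counts moved was not tested.

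Signs turned only for uncalled differences. Without single arrays, Fgfr4 after FGF23 ran from -0.0117 to 0.1058, Fgfr1 after FGF23 from -0.0075 to 0.0925, Klb in KL null from -0.1183 to 0.08 and Fgfr2 in KL null from -0.0117 to 0.0383. After FGF23, Fgfr4 was -0.0117 without FGF23 replicate 4 and -0.005 median-centred. Fgfr1 was -0.0042 and -0.0075 without vehicle replicates 2 and 4, and -0.0375 median-centred. Fgfrl1 was -0.01 and Frs3 -0.0025 without the 2 narrow arrays, and -0.0182 and -0.0643 with the array SD as covariate. In KL null, Klb was 0.0317 and 0.0683 without KL null replicates 2 and 4, and 0.0267 and 0.08 without vehicle replicates 2 and 3. Fgfr2 was -0.0117 and -0.005 without KL null replicates 2 and 3, -0.0058 without vehicle replicate 2 or 3, and -0.0425 median-centred. The block over all 12 arrays ended the Fgfr3 call against WT with FGF23 (adjusted p = 0.0585). The block on those 8 arrays was chosen after seeing the data.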
